A study of Mus musculus with 6 samples.

Results

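A set of 40 genes of macrophages and other myeloid cells was followed in 6 RNA sequencing libraries of mouse sarcoma cells. The genes were taken by symbol from the 35727 genes of the deposited count table, and all 40 had a row there. They comprise 10 genes used by most macrophages, 8 genes that vary with the state of a macrophage, 4 class II antigen presentation genes and 18 further receptor, adaptor, chemokine, lysosomal and secreted genes. Of the 40, 37 passed the count filter and were tested among 12819 genes, and Cd163, Folr2 and Lyve1 did not pass it.

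The 3 shPostn libraries, titled Postn-KO, come from cells with a virally delivered hairpin against Postn, which encodes the secreted matrix protein periostin. The 3 shSCR libraries, titled Postn-WT, come from cells with a scrambled hairpin. Both groups are the same cell line, named p53 KO Ccne1 OE, an undifferentiated pleomorphic sarcoma line. It was derived from mesenchymal stem cells of female C57/Bl6 p53KO mice that received Ccne1 (cyclin E1) and a red fluorescent protein, RFP, from a retroviral vector, and it had been passaged through wild-type recipients. Cells of both groups were grown as tumours in mice whose genotype is not given in the sources used here, and RFP+ cells were sorted from the tumours for RNA extraction. The model is therefore 1 line with 1 hairpin per group. Nothing in the labels tells whether replicates are separate tumours or mice, so each p measures the spread between these libraries, which may be technical.

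Macrophages arise from monocytes or from embryonic precursors and most depend on signalling through the receptor Csf1r. The transcription factor PU.1, the product of Spi1, binds purine-rich sequences with a GGAA core near many of their genes. In tumours, macrophages take up dying cells, present antigen on class II molecules and secrete enzymes and growth factors, and their state is often read from genes such as Arg1, Mrc1, Cd86 and Trem2. The sorted cells were selected on the tumour cells' fluorescence, and no antibody against a leukocyte antigen is named in the sources used here. In bulk RNA, fewer cells of a type and less RNA per cell cannot be told apart.

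Promoter windows are shown for 6 genes that differed in how their levels varied over the libraries, as given further on. C1qb, C1qc, Ctss and Mrc1 followed the macrophage genes as a whole from library to library, while Spp1 and Gpnmb did not. C1qb and C1qc are themselves among the 10 genes used by most macrophages. Each window runs from 250 bases before to 50 bases after a RefSeq gene start on GRCm38.p6 and is written 5′ to 3′ on the gene's strand. Capitals mark GAGGAA or its reverse complement, the short form of the PU.1 motif.

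C1qb (chr4:136886151-136886450, minus strand): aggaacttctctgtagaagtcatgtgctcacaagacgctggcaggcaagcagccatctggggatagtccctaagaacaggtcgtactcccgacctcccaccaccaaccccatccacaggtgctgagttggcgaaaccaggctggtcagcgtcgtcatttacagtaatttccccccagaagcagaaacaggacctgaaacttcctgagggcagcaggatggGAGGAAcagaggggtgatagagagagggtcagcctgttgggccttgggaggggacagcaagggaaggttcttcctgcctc

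C1qc (chr4:136892865-136893164, minus strand): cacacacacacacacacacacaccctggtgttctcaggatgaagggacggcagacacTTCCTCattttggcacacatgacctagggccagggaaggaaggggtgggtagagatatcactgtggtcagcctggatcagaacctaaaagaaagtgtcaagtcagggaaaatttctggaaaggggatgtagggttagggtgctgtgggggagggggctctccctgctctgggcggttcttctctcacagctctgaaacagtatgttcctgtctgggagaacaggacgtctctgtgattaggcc

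Ctss (chr3:95526536-95526835, plus strand): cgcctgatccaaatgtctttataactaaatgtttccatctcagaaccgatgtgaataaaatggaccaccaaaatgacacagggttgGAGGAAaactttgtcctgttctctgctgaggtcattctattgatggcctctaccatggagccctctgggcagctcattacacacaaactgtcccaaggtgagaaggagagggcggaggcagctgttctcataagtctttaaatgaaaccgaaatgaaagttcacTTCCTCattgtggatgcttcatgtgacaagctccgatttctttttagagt

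Mrc1 (chr2:14229164-14229463, plus strand): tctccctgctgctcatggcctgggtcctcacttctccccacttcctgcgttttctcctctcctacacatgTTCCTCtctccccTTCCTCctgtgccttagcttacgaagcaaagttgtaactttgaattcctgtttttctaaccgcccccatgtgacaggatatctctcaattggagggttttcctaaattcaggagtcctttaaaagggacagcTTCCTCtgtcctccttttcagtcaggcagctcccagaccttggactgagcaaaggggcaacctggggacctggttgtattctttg

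Spp1, window 1 (chr5:104434861-104435160, plus strand): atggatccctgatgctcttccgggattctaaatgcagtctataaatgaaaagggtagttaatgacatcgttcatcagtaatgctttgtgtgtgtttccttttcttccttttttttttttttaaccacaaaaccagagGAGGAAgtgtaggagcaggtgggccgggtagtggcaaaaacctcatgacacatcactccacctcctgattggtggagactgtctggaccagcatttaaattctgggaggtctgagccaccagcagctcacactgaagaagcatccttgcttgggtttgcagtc

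Gpnmb (chr6:49036268-49036567, plus strand): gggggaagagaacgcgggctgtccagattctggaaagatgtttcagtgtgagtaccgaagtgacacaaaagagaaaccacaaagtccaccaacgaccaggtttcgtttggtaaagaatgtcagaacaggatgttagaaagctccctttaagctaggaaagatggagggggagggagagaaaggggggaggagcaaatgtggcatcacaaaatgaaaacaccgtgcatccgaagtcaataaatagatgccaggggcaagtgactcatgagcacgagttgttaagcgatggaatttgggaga

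RefSeq windows were found for 28 of the 40 members, 36 windows in all. GAGGAA, searched on both strands, lay in 18 of these 36 windows (50% of windows, in 16 of 28 genes), against 28.3% of all 32851 windows of that length. The longer form GAGGAAGT, which contains the shorter one, lay in 4 of the 36 (11.1%; C1qc, Ctss, Pf4 and Spp1), against 3.2% of all windows. The window of Gpnmb printed above and the other RefSeq window of Spp1 held neither form. Spp1 therefore shares the long form with C1qc and Ctss but not their levels across libraries. A match describes the letters in the window and not binding by the factor. The printed genes are chosen examples, and whether the motif goes with the pattern over libraries was not tested.

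Library totals lay between 19603269 and 19931734 estimated counts in shPostn and between 19847860 and 20376554 in shSCR. Levels are given as CPM, each count scaled to its own library total, always for replicates 1, 2 and 3 in that order. Postn, the target of the hairpin, had 212, 475 and 644 CPM in shPostn, against 4116, 3618 and 3201 CPM in shSCR. Its log2 fold change was −3.04 (SE 0.41, adjusted p = 0.0125, edgeR's quasi-likelihood test with Benjamini-Hochberg adjustment), so the target was lower in shPostn, and least so in shPostn replicate 3. The call was lost without shSCR replicate 1 and without shSCR replicate 2 (adjusted p up to 0.0542), and over the 6 fits with 1 library left out the log2 fold change lay between −3.40 and −2.71. A list of 10 sarcoma and mesenchymal line genes summed to 25357, 36500.5 and 46401 CPM in shPostn, against 34988, 39348 and 38193 CPM in shSCR. In shPostn replicate 3, the collagen genes Col1a1 and Col1a2 gave 13459.5 and 17673 CPM of that sum. Only 3 of the 10 genes were highest in that library, and Vim, Twist1 and Ccne1 were not. The sum is therefore no measure of tumour cell content.

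Myeloid transcripts were present in all 6 libraries, and 1 library stood apart. The 40 genes summed to 662, 639 and 3310.5 CPM in shPostn, against 1047, 857 and 679.9 CPM in shSCR. These sums are 0.0662, 0.0639 and 0.331% of the library in shPostn and 0.105, 0.0857 and 0.0680% in shSCR. Outside shPostn replicate 3, a large part of each sum came from Spp1, the gene of osteopontin. Osteopontin is a secreted protein made by macrophages, bone cells and many tumour cells. In shPostn replicate 3 Spp1 gave 498 of the 3310.5 CPM, less than Apoe (528.5 CPM). Without Spp1 and Gpnmb, the other 38 genes summed to 323, 157 and 2791 CPM in shPostn, against 538, 389 and 215 CPM in shSCR. The library shPostn replicate 3 was thus above all 3 shSCR libraries, while shPostn replicate 2 was below all 3 and shPostn replicate 1 fell between shSCR replicates 2 and 3.

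**Figure D1:**
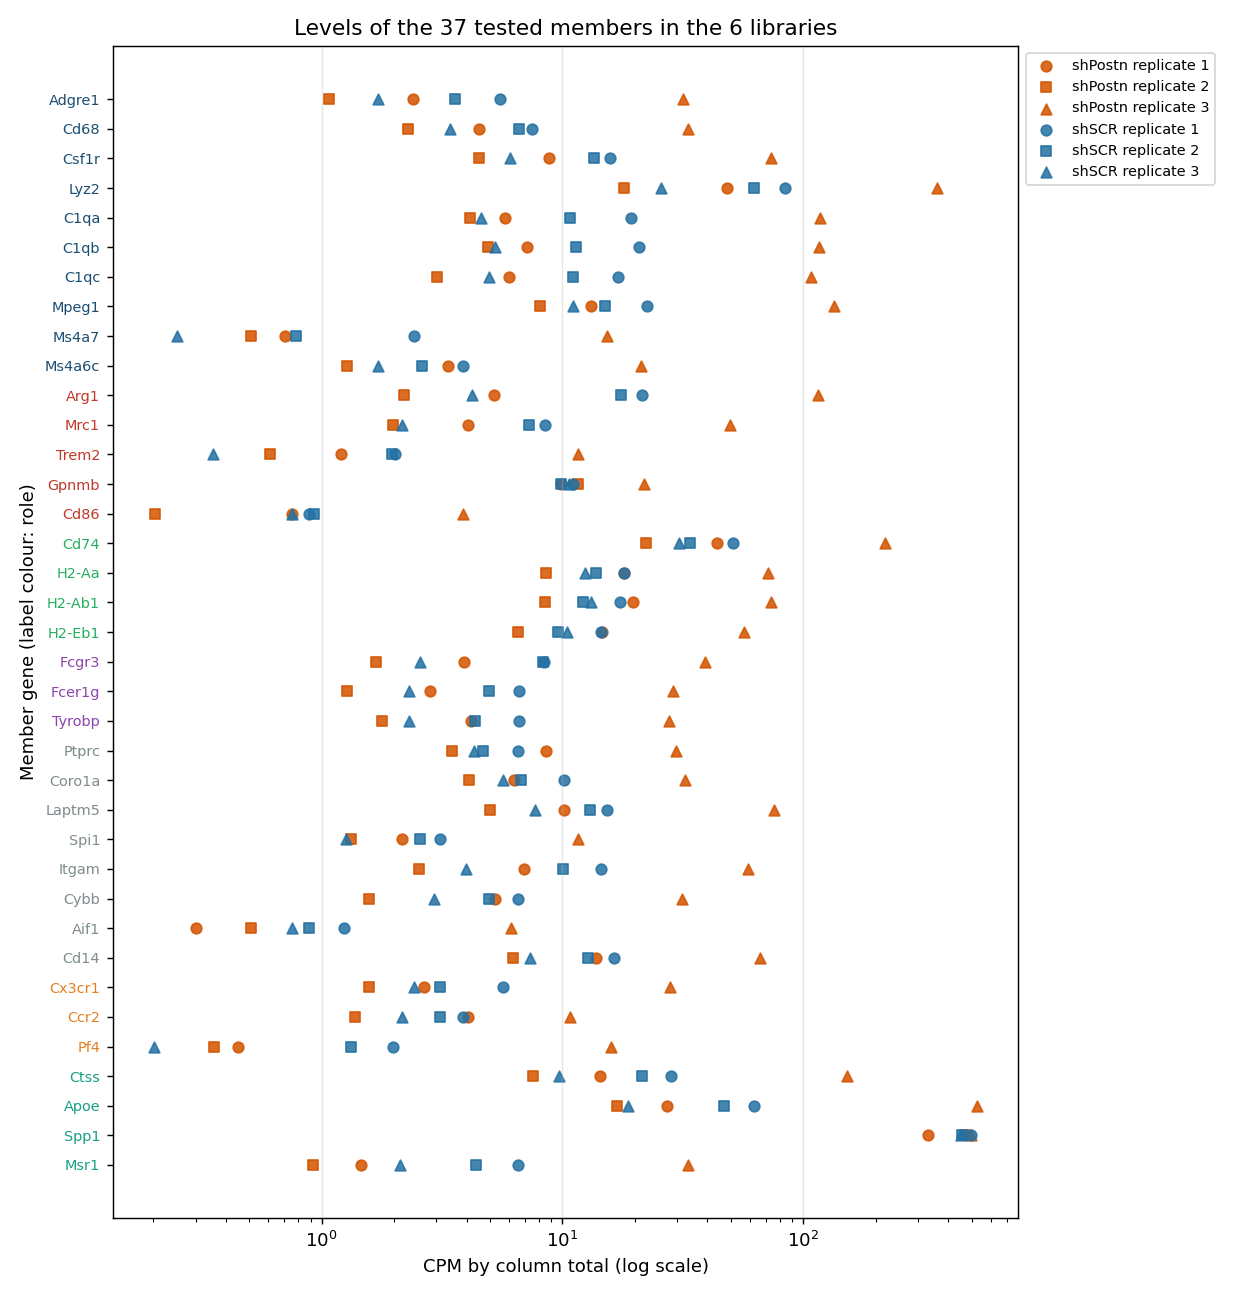
CPM of each of the 37 tested genes (rows, label colour by role) on a log axis, with 1 point per library: orange for shPostn and blue for shSCR, and a circle, square or triangle for replicates 1, 2 and 3. The orange triangle of shPostn replicate 3 is the rightmost point of every gene, though for Spp1 it is nearly level with shSCR replicate 1. The points of Spp1 and Gpnmb lie closest together.

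The genes of most macrophages were highest in shPostn replicate 3 and lowest, for all but Ms4a7, in shPostn replicate 2. Csf1r, the receptor for the growth factors that keep macrophages alive, had 8.83, 4.49 and 73.8 CPM in shPostn, against 15.8, 13.5 and 6.05 CPM in shSCR. Adgre1 (chr17:57358691-57483527), which encodes the F4/80 antigen, had 2.41, 1.07 and 31.8 CPM in shPostn, against 5.54, 3.58 and 1.71 CPM in shSCR. Cd68, a glycoprotein of late endosomes that is also made at low levels by other cells, had 4.51, 2.30 and 33.3 CPM in shPostn, against 7.46, 6.58 and 3.43 CPM in shSCR. For each of the 3 genes the shSCR libraries lay inside the range of the shPostn libraries.

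Lyz2 (chr10:117277331-117282321), the gene of macrophage lysozyme, was the most abundant of the 10, with 48.5, 17.96 and 361 CPM in shPostn, against 84.2, 62.3 and 25.8 CPM in shSCR. Its near copy Lyz1 may share reads with it, so the level of Lyz2 alone is uncertain. Mpeg1, which encodes the pore-forming perforin-2 of phagosomes, had 13.2, 8.06 and 134 CPM in shPostn, against 22.5, 15.02 and 11.1 CPM in shSCR. Both genes followed Csf1r in the order of the libraries.

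The 3 chains of complement component C1q lie side by side on chromosome 4 and varied together. C1qa (chr4:136895917-136898803) had 5.77, 4.13 and 118 CPM in shPostn, against 19.3, 10.8 and 4.58 CPM in shSCR. C1qb (chr4:136880129-136886187) had 7.12, 4.90 and 116 CPM in shPostn, against 20.8, 11.3 and 5.24 CPM in shSCR. C1qc (chr4:136889804-136893065) had 6.02, 3.01 and 108 CPM in shPostn, against 16.9, 11.04 and 4.94 CPM in shSCR. In all 6 libraries the chains kept similar levels to each other, whereas their sum lay between 12.04 CPM in shPostn replicate 2 and 342 CPM in shPostn replicate 3.

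Ms4a7 and Ms4a6c, members of a family of 4-span membrane proteins that cluster on chromosome 19, were lower in level. Ms4a7 had 0.702, 0.510 and 15.3 CPM in shPostn, against 2.42, 0.785 and 0.252 CPM in shSCR. Ms4a6c had 3.36, 1.27 and 21.2 CPM in shPostn, against 3.85, 2.60 and 1.71 CPM in shSCR, and reads of its near copies such as Ms4a6d may be split between them. In shSCR replicate 3 the level of Ms4a7 rested on 5 counts, the lowest of its libraries.

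As a single measure, the mean log2(CPM + 0.25) of the 10 genes was 2.61, 1.76 and 6.07 in shPostn, against 3.66, 3.04 and 2.08 in shSCR. The group means were 3.48 ± 2.28 in shPostn and 2.93 ± 0.80 in shSCR (SD, n = 3 each), a difference of 0.55 that is smaller than either SD. Without shPostn replicate 3 the difference was −0.74. The sign of the group difference thus rested on that 1 library. No p is given for this mean, since it is a score over chosen genes.

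**Figure D2:**
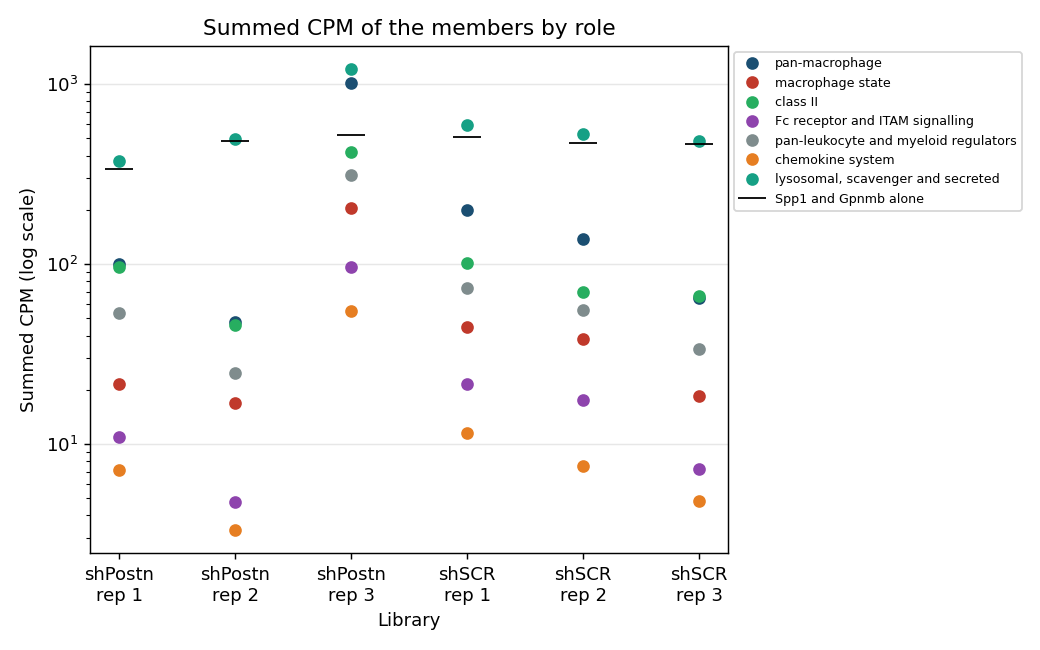
Summed CPM of the members of each role in every library, on a log axis, with the shPostn libraries left of the shSCR libraries; dashes give Spp1 and Gpnmb alone. In every role shPostn replicate 3 is the highest, while the dash lies between 339 and 520 CPM in all 6 libraries.

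Receptors and adaptors that signal through the ITAM motif followed the same order of libraries. Fcgr3 (chr1:171051174-171064935), an activating receptor for the Fc part of immunoglobulin G, had 3.91, 1.68 and 39.2 CPM in shPostn, against 8.40, 8.34 and 2.57 CPM in shSCR. Fcer1g, the shared signalling chain of Fc receptors, had 2.81, 1.27 and 28.9 CPM in shPostn, against 6.62, 4.96 and 2.32 CPM in shSCR. Tyrobp, the DAP12 adaptor used by Trem2 and other receptors, had 4.16, 1.78 and 27.6 CPM in shPostn, against 6.62, 4.32 and 2.32 CPM in shSCR. All 3 were at least 4.17 times higher in shPostn replicate 3 than in the next library, shSCR replicate 1.

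Of the general leukocyte genes Coro1a and Laptm5 kept the order of libraries seen for Csf1r, and Ptprc did not. Ptprc (chr1:138062861-138175708), which encodes the CD45 phosphatase of all leukocytes, had 8.53, 3.47 and 29.8 CPM in shPostn, against 6.57, 4.66 and 4.28 CPM in shSCR. Coro1a, an actin regulator of blood cells, had 6.32, 4.08 and 32.2 CPM in shPostn, against 10.1, 6.72 and 5.64 CPM in shSCR. Laptm5, a lysosomal membrane protein of blood cells, had 10.2, 4.999 and 75.7 CPM in shPostn, against 15.3, 13.1 and 7.71 CPM in shSCR. For Ptprc the second highest library was shPostn replicate 1, while for Coro1a and Laptm5 it was shSCR replicate 1.

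Spi1, the gene of PU.1, had 2.16, 1.33 and 11.6 CPM in shPostn, against 3.11, 2.55 and 1.26 CPM in shSCR. Itgam, the integrin chain CD11b of monocytes, macrophages and neutrophils, had 6.92, 2.55 and 59.1 CPM in shPostn, against 14.5, 10.1 and 3.98 CPM in shSCR. Cybb, the membrane subunit of the phagocyte oxidase, had 5.27, 1.58 and 31.5 CPM in shPostn, against 6.57, 4.96 and 2.92 CPM in shSCR. The regulator and its myeloid surface and effector genes were therefore all highest in the same library, though Spi1 was lowest in shSCR replicate 3.

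Aif1, which encodes the actin-binding protein IBA1, had 0.301, 0.510 and 6.09 CPM in shPostn, against 1.24, 0.883 and 0.756 CPM in shSCR. It was counted thinly, with 6, 10 and 121 counts in shPostn and 25, 18 and 15 counts in shSCR. Cd14, the co-receptor for bacterial lipopolysaccharide, had 13.8, 6.22 and 65.9 CPM in shPostn, against 16.4, 12.8 and 7.31 CPM in shSCR. Aif1 was lower in shPostn replicates 1 and 2 than in any shSCR library, and Cd14 was not.

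Chemokine system genes included both monocyte and resident macrophage genes. Ccr2, the receptor that brings monocytes out of the marrow, had 4.06, 1.38 and 10.7 CPM in shPostn, against 3.85, 3.09 and 2.17 CPM in shSCR. Cx3cr1, the fractalkine receptor, had 2.66, 1.58 and 27.9 CPM in shPostn, against 5.68, 3.09 and 2.42 CPM in shSCR. Pf4, a chemokine of platelets and of some macrophages, had 0.452, 0.357 and 15.9 CPM in shPostn, against 1.98, 1.32 and 0.202 CPM in shSCR. Ccr2 had the smallest excess of the 3 in shPostn replicate 3, at 2.64 times the next library, and Pf4 the largest, at 8.02 times.

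Class II genes were less uneven than the macrophage genes, with 8.41 to 9.75 times as much in the highest as in the lowest library, against 14.5 to 60.6 times. The value of 60.6 is that of Ms4a7 and rests on 5 counts in its lowest library. Cd74, the invariant chain that guides class II molecules, had 44, 22.3 and 218 CPM in shPostn, against 51.1, 33.9 and 30.4 CPM in shSCR. H2-Aa (chr17:34282744-34287823) had 18.1, 8.52 and 71.7 CPM in shPostn, against 18.04, 13.8 and 12.4 CPM in shSCR. H2-Ab1 had 19.7, 8.47 and 73.6 CPM in shPostn, against 17.4, 12.2 and 13.1 CPM in shSCR. H2-Aa, H2-Ab1 and H2-Eb1 encode chains of mouse class II molecules, which show peptides to helper T cells.

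H2-Eb1 had 14.7, 6.53 and 56.8 CPM in shPostn, against 14.5, 9.62 and 10.5 CPM in shSCR. In all 3 of the H2 genes the second highest library was shPostn replicate 1, which held only the fourth highest level of the C1q genes. It was nearly level with shSCR replicate 1 for H2-Aa (18.06 against 18.04 CPM) and H2-Eb1 (14.65 against 14.53 CPM). For Cd74 shSCR replicate 1 was second. The summed level of the 3 H2 genes over that of the 3 C1q genes was 2.77, 1.95 and 0.591 in shPostn, against 0.876, 1.08 and 2.44 in shSCR. The ratio was lowest in shPostn replicate 3 and highest in shPostn replicate 1, and the groups overlapped.

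Lysosomal, scavenger and secreted genes held both the steadiest and the least steady members. Ctss (chr3:95526786-95556403), cathepsin S, a protease that trims the invariant chain, had 14.3, 7.55 and 152 CPM in shPostn, against 28.3, 21.4 and 9.72 CPM in shSCR. Apoe, the lipid carrier apolipoprotein E, had 27.2, 16.9 and 528 CPM in shPostn, against 62.7, 46.9 and 18.7 CPM in shSCR. Msr1 (chr8:39581685-39642673), the class A scavenger receptor, had 1.46, 0.918 and 33.2 CPM in shPostn, against 6.57, 4.37 and 2.12 CPM in shSCR. Msr1 was lower in shPostn replicates 1 and 2 than in all 3 shSCR libraries, and Apoe had the largest excess of the 37 tested genes in shPostn replicate 3, at 8.43 times the next library.

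Spp1 (chr5:104435118-104441050) was the exception in level and in pattern. It had 329, 470.5 and 498 CPM in shPostn, against 498, 458 and 454 CPM in shSCR, or 432 ± 90.8 CPM in shPostn and 470.0 ± 24.2 CPM in shSCR (SD, n = 3 each). Per kilobase of annotated exon its mean level over the 6 libraries was 274 CPM per kb, against 75.9 for Lyz2, 54.6 for Apoe, 39.7 for Cd74 and 28.7 for Ctss. Its highest library was 1.51 times its lowest, while the tested members other than Spp1 and Gpnmb differed 7.79-fold to 78.7-fold. The upper end is that of Pf4 and is uncertain, since its lowest library, shSCR replicate 3, held 4 counts.

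Counted over the members, all 37 tested genes were highest in shPostn replicate 3, where 20.9% of all genes tested were highest. For Spp1 this was nearly a tie, with 498 CPM against 497.7 CPM in shSCR replicate 1. In 35 of the 37 the level in shPostn replicate 3 was at least 2 times that of any other library. That held for 2.85% of all genes tested, and the exceptions among the members were Spp1 and Gpnmb. For those 35 genes the excess over the next library lay between 2.64 and 8.43 times, with a median of 4.8. The second highest library was shSCR replicate 1 for 30 of the 37, and the lowest was shPostn replicate 2 for 30. The groups overlapped for all 37 genes, whereas 33.7% of all genes tested had groups that did not overlap. In shPostn replicates 1 and 2 only Cd86, Aif1 and Msr1 were below all 3 shSCR libraries, 3 of 37 members beside 25.4% of all genes tested.

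Signals of other cell types were looked at in the same libraries. Haemoglobin and other erythroid genes summed to 0.251, 0.153 and 27.9 CPM in shPostn, against 10.1, 2.40 and 2.77 CPM in shSCR, the same highest library as the macrophage genes. T cell genes summed to 4.01, 3.57 and 10.1 CPM in shPostn, against 4.003, 4.51 and 4.53 CPM in shSCR. All 3 that were tested were highest in shPostn replicate 3, where Il7r alone gave 4.08 CPM. The T cell receptor genes Cd3d, Cd3e and Cd3g had only 0.151, 0.101 and 0.252 CPM in that library. Endothelial genes summed to 2.51, 2.75 and 8.96 CPM in shPostn, against 4.10, 6.08 and 5.996 CPM in shSCR. Of the 3 that were tested only 1, Pecam1 (3.17 CPM), was highest in shPostn replicate 3. Cdh5 had 2.12 CPM in that library, below shSCR replicates 2 and 3 (2.45 and 3.28 CPM). All 3 sums were thus also highest in shPostn replicate 3, those of T cell and endothelial genes largely through single genes. Their part in the macrophage result was not tested.

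Neutrophil genes summed to 7.17, 2.30 and 7.40 CPM in shPostn, against 5.44, 3.73 and 1.66 CPM in shSCR, and the granule genes Camp and Elane had 0 counts in every library. NK cell genes ranged between 2.04 and 3.68 CPM in shPostn and between 1.67 and 3.38 CPM in shSCR. B and plasma cell genes lay between 2.66 and 11.1 CPM in shPostn and between 6.82 and 10.3 CPM in shSCR. None of these 3 lists shared the macrophage genes' excess in shPostn replicate 3, where each was at most 1.09 times the next library. Dendritic cell genes lay between 9.62 and 15.2 CPM in shPostn and between 10.6 and 12.8 CPM in shSCR, and mast cell genes between 0.151 and 0.255 CPM in shPostn and between 0.148 and 0.504 CPM in shSCR. Zbtb46 gave most of the dendritic cell sum, with 7.60 to 13.5 CPM in shPostn and 9.39 to 10.8 CPM in shSCR. Flt3, Xcr1 and Clec9a had at most 0.561 CPM in any library. A further 4 lists are of cells that are not leukocytes. Pericyte genes summed to between 228 and 284 CPM in shPostn and between 225 and 255 CPM in shSCR, and skeletal muscle genes to between 0.903 and 1.76 CPM in shPostn and between 1.14 and 1.62 CPM in shSCR. Adipocyte genes summed to between 0.0502 and 0.705 CPM in shPostn and between 0.0504 and 0.932 CPM in shSCR, and keratinocyte genes to between 2.37 and 3.67 CPM in shPostn and between 1.81 and 2.55 CPM in shSCR. Of these 4 sums, that of skeletal muscle was highest in shPostn replicate 3, at 1.09 times the next library, and the others were not. Cspg4 gave most of the pericyte sum, with 156 to 258 CPM in shPostn and 192 to 216 CPM in shSCR. Rgs5, Kcnj8 and Abcc9 had at most 0.705 CPM in any library. The pericyte and dendritic cell sums thus rested largely on single genes.

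The main comparison asks whether myeloid genes differ between tumour cells with the Postn hairpin and those with the scrambled one. No member passed the threshold: edgeR's quasi-likelihood test called 0 of the 37, while it called 10.1% of all genes tested. At an unadjusted p under 0.05 edgeR also gave 0. DESeq2 called 0 members and 15.4% of all genes, with 1 member at an unadjusted p under 0.05. It gave no adjusted p for members such as Arg1 and Ms4a7, which therefore could not be called. The limma-voom fit called 0 members and 10.2% of all genes, with 0 members at an unadjusted p under 0.05. The log2 fold changes of 36 members were positive and that of Spp1 negative, with a median of 1.33 over the members and 0.01 over all genes tested. In shPostn the SD exceeded the mean for every tested member except Gpnmb, Ccr2 and Spp1, and fold changes of this size were not separable from that spread.

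Single genes show what the test weighed. Csf1r averaged 29.1 ± 38.8 CPM in shPostn and 11.8 ± 5.08 CPM in shSCR (SD, n = 3 each), with a log2 fold change of 1.30 (SE 1.11, adjusted p = 0.512 by edgeR). C1qa averaged 42.6 ± 65.1 CPM in shPostn and 11.5 ± 7.38 CPM in shSCR (SD, n = 3 each), with a log2 fold change of 1.88 (SE 1.42, adjusted p = 0.461 by edgeR). Cd74 averaged 94.7 ± 107 CPM in shPostn and 38.5 ± 11.1 CPM in shSCR (SD, n = 3 each), with a log2 fold change of 1.30 (SE 0.88, adjusted p = 0.413 by edgeR). None of these fold changes reached 2 SE.

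Without shPostn replicate 3 the fold changes turned. The median over the 37 members was then −0.77, with 34 negative values and 3 positive ones, and again 0 members were called while 17.1% of all genes tested were. Csf1r then had a log2 fold change of −0.80 (SE 0.54, adjusted p = 0.394 by edgeR). Msr1 came nearest to the threshold, with −1.85 (SE 0.53, adjusted p = 0.0576 by edgeR), and Arg1 had the largest value, −1.94 (SE 0.93, adjusted p = 0.260). Msr1 and Aif1 were the 2 members at an unadjusted p under 0.05 in that fit. The 2 remaining shPostn libraries and the 3 shSCR libraries thus gave lower values for most members in shPostn, none past the threshold.

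**Figure D3:**
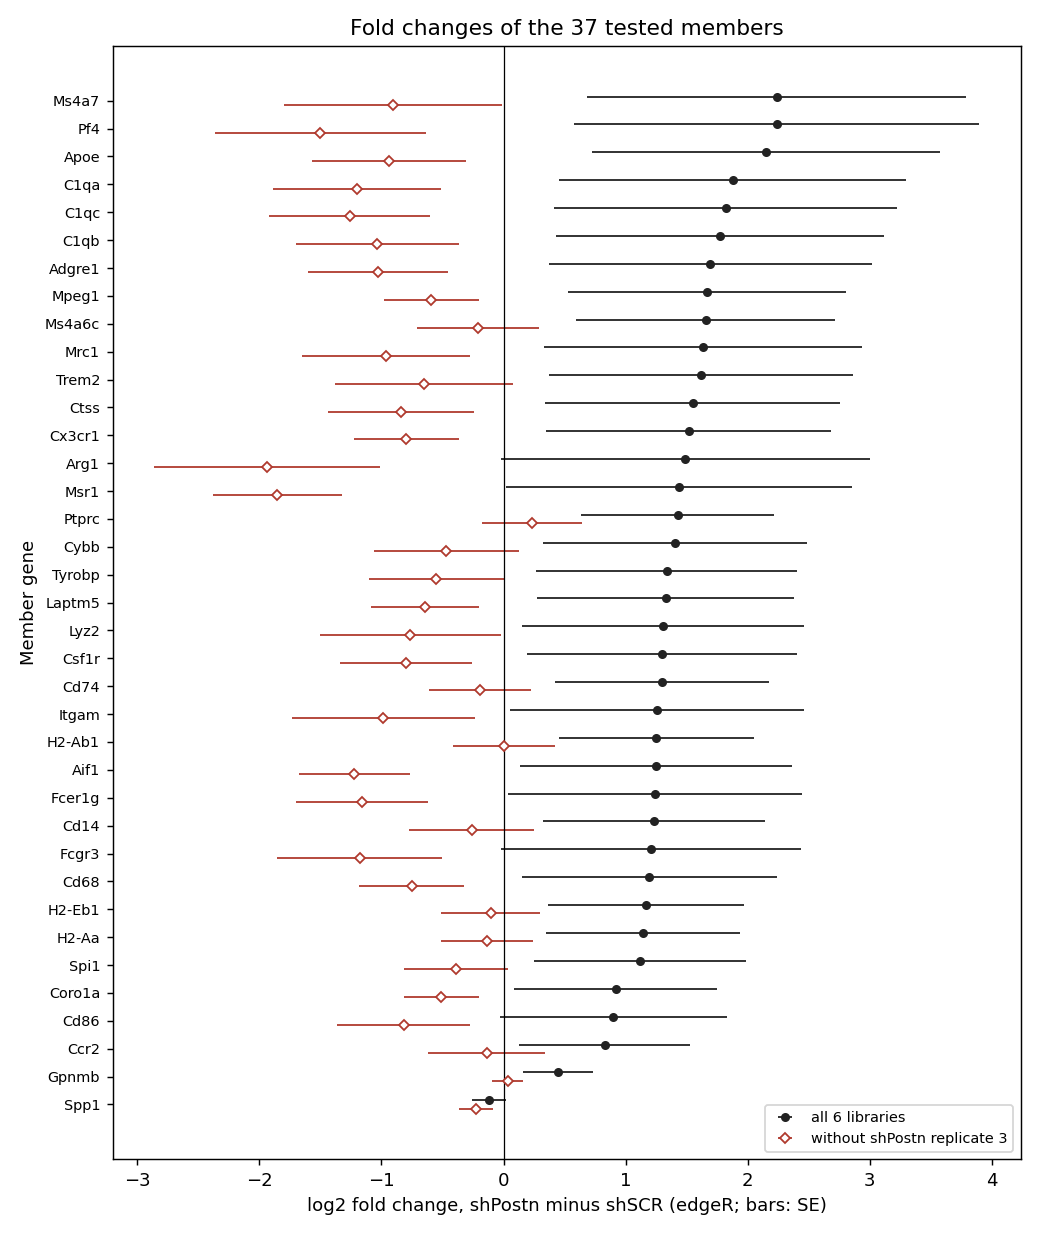
Log2 fold change of shPostn over shSCR for the 37 tested genes, with all 6 libraries (filled points) and without shPostn replicate 3 (open diamonds); bars are SE. With all libraries 36 of 37 points lie above 0, and without shPostn replicate 3, 34 of 37 lie below 0.

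Csf1r, Cd14 and Cd74 lie on chromosome 18, where the median log2 fold change of 281 genes was −0.45. With each chromosome's median taken out, Csf1r had a log2 fold change of 1.75 (adjusted p = 0.427 by edgeR), Cd14 of 1.68 (adjusted p = 0.355) and Cd74 of 1.75 (adjusted p = 0.321). None of the 3 passed in either form. Whether the myeloid transcripts share the chromosome's shift in the tumour cells was not tested.

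The state genes were compared with the 10 macrophage genes within each library, as the difference of log2(CPM + 0.25) from their mean. This takes out how much macrophage RNA a library holds, as far as the 10 genes measure it. Each was compared by an exact 2-sided permutation test over the 6 libraries, in which 3 against 3 libraries cannot give a p below 0.1, so no gene could pass the threshold and the values are descriptive. Adjusted over the 8 genes by Benjamini-Hochberg, every p was 1.

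Arg1 (chr10:24915221-24927484), arginase 1, which uses up arginine and is a common mark of tumour macrophages, had 5.22, 2.19 and 115 CPM in shPostn, against 21.4, 17.6 and 4.23 CPM in shSCR. Its difference from the macrophage genes was −0.16, −0.48 and 0.77 in shPostn, against 0.78, 1.11 and 0.085 in shSCR. The group means were 0.045 ± 0.65 in shPostn and 0.66 ± 0.52 in shSCR (SD, n = 3 each), apart by −0.61 (exact permutation p = 0.2). Arg1 was thus low against the macrophage genes in shPostn replicates 1 and 2, and in shPostn replicate 3 it stood beside shSCR replicate 1.

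Mrc1 (chr2:14229392-14332057), the mannose receptor CD206, had 4.06, 1.99 and 49.8 CPM in shPostn, against 8.50, 7.26 and 2.17 CPM in shSCR. Against the macrophage genes it was −0.50, −0.60 and −0.43 in shPostn, against −0.53, −0.13 and −0.81 in shSCR, a difference between groups of −0.02 (exact permutation p = 1). Mrc1 therefore moved with the macrophage genes in every library, within a range of 0.67. The ratio of Arg1 to Mrc1 in CPM was 1.28, 1.10 and 2.30 in shPostn, against 2.52, 2.42 and 1.95 in shSCR. Here shPostn replicates 1 and 2 were the lowest, and shPostn replicate 3 lay among the shSCR libraries.

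Trem2 (chr17:48346401-48354147), a lipid-sensing receptor of macrophages in tumours and in fat tissue, had 1.20, 0.612 and 11.6 CPM in shPostn, against 2.03, 1.96 and 0.353 CPM in shSCR. Against the macrophage genes it was −2.07, −1.98 and −2.51 in shPostn, against −2.48, −1.90 and −2.81 in shSCR, apart by 0.21 (exact permutation p = 0.7). Its lowest library, shSCR replicate 3, held 7 counts. Trem2 had no group order beyond that spread.

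Cd86 (chr16:36603869-36666081), a co-stimulatory ligand for T cells, had 0.753, 0.204 and 3.88 CPM in shPostn, against 0.889, 0.932 and 0.756 CPM in shSCR. Against the macrophage genes it was −2.61, −2.90 and −4.03 in shPostn, against −3.48, −2.80 and −2.07 in shSCR, apart by −0.40 (exact permutation p = 0.6). In CPM the shPostn libraries 1 and 2 were below all shSCR libraries, and the ratio was lowest in shPostn replicate 3, where the macrophage genes were highest. The counts were 15, 4 and 77 in shPostn and 18, 19 and 15 in shSCR, so each low value carries a large counting error.

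Gpnmb (chr6:49036546-49070929), a transmembrane glycoprotein of lipid-laden macrophages that pigment and bone cells also make, had 9.88, 11.6 and 21.8 CPM in shPostn, against 11.1, 9.91 and 10.7 CPM in shSCR. Against the macrophage genes it was 0.73, 1.81 and −1.61 in shPostn, against −0.16, 0.30 and 1.37 in shSCR, apart by −0.20 (exact permutation p = 1). Its level in shPostn replicate 3 was 1.87 times that of the next library, while the macrophage mean there was highest by more than 2 log2 units. The ratio fell with each step up in the macrophage mean over the 6 libraries, with a range of 3.42. Because that mean is subtracted and Gpnmb itself changed little outside shPostn replicate 3, this fall mainly restates the mean.

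Folr2, Cd163 and Lyve1, genes of resident tissue macrophages, were near the limit of detection. Folr2, the folate receptor beta, had 2, 1 and 46 counts in shPostn and 7, 2 and 1 in shSCR. Cd163, the haemoglobin scavenger receptor, had 2, 3 and 4 counts in shPostn and 2, 2 and 2 in shSCR. Lyve1, a hyaluronan receptor that lymphatic vessels also make, had 2, 0 and 0 counts in shPostn and 4, 4 and 1 in shSCR. A count of 0 allows up to 0.153 CPM in shPostn replicate 2 and 0.151 CPM in shPostn replicate 3, from 3 counts and counting error only. Folr2 was well above its other libraries in shPostn replicate 3, while Cd163 and Lyve1 had at most 4 counts in any library.

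Against the macrophage genes, Folr2 was −4.12, −3.50 and −4.71 in shPostn, against −4.41, −4.57 and −3.81 in shSCR, a difference of 0.15 (exact permutation p = 0.7). Cd163 was −4.12, −3.08 and −7.22 in shPostn, against −5.18, −4.57 and −3.59 in shSCR, a difference of −0.36 (exact permutation p = 0.9). Lyve1 was −4.12, −3.77 and −8.07 in shPostn, against −4.82, −4.21 and −3.81 in shSCR, a difference of −1.04 (exact permutation p = 0.9). Apart from Folr2 in shPostn replicate 3, these values are set mainly by the pseudocount of 0.25 and the macrophage mean, and no direction is read from them.

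**Figure D4:**
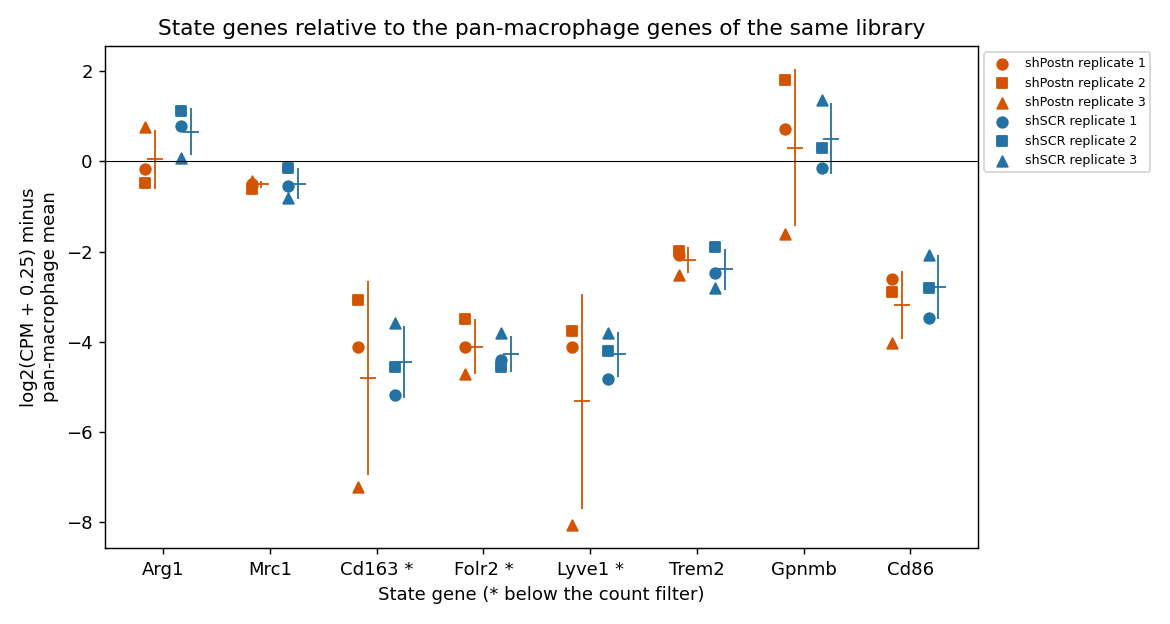
Difference of log2(CPM + 0.25) between each of the 8 state genes and the mean of the 10 macrophage genes, with 1 point per library and shPostn (orange) left of shSCR (blue); the line beside each group is its mean ± SD. The groups overlap for every gene, and the widest spreads are those of Gpnmb and of the low-count genes Cd163 and Lyve1.

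The same within-library difference was taken for all 37 tested genes, to see which followed the macrophage mean. A gene that is itself in the mean was compared with the mean of the other 9, which widens its range slightly. The steadiest was Ctss, whose difference varied over 0.22 log2 units among the 6 libraries, and Adgre1, which is one of the 10 genes in the mean, varied over 0.32. Of the 27 tested members outside the 10 genes in the mean, 11 varied by less than 1 log2 unit and 16 by at least 1. Of the 10 genes that make up the mean, each set against the other 9, 9 varied by less than 1. Ms4a7 was just above that, at 1.06. The least steady were Spp1 (range 4.23), Gpnmb (3.42) and Ccr2 (2.12), followed by Cd86 (1.96) and Ptprc (1.69). Class II genes varied over 1.16 to 1.58 log2 units. Of the 16 less steady genes outside the mean, 12 had their lowest difference in shPostn replicate 3, where the macrophage mean was highest, and Arg1, Msr1, Aif1 and Pf4 did not. Because the mean is subtracted, a gene that rises less than it must come out low there, so this count is partly built in.

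Ratios of single genes restate part of this in CPM. Ptprc over Csf1r, a leukocyte gene over a macrophage gene, was 0.966, 0.773 and 0.403 in shPostn, against 0.417, 0.345 and 0.708 in shSCR. Ccr2 over Adgre1, a monocyte gene over a mature macrophage gene, was 1.69, 1.29 and 0.338 in shPostn, against 0.696, 0.863 and 1.26 in shSCR. Both ratios were low in the libraries richest in macrophage transcripts, shPostn replicate 3 and shSCR replicates 1 and 2, and high in the other 3 libraries. Csf1r and Adgre1 are themselves in the macrophage mean, so any gene that varies less than they do gives this order by construction. Apoe over Lyz2 was 0.561, 0.940 and 1.46 in shPostn, against 0.745, 0.753 and 0.726 in shSCR, highest in shPostn replicate 3. In the shSCR libraries that ratio hardly changed, although the macrophage mean lay between 2.08 and 3.66 among them.

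**Figure D5:**
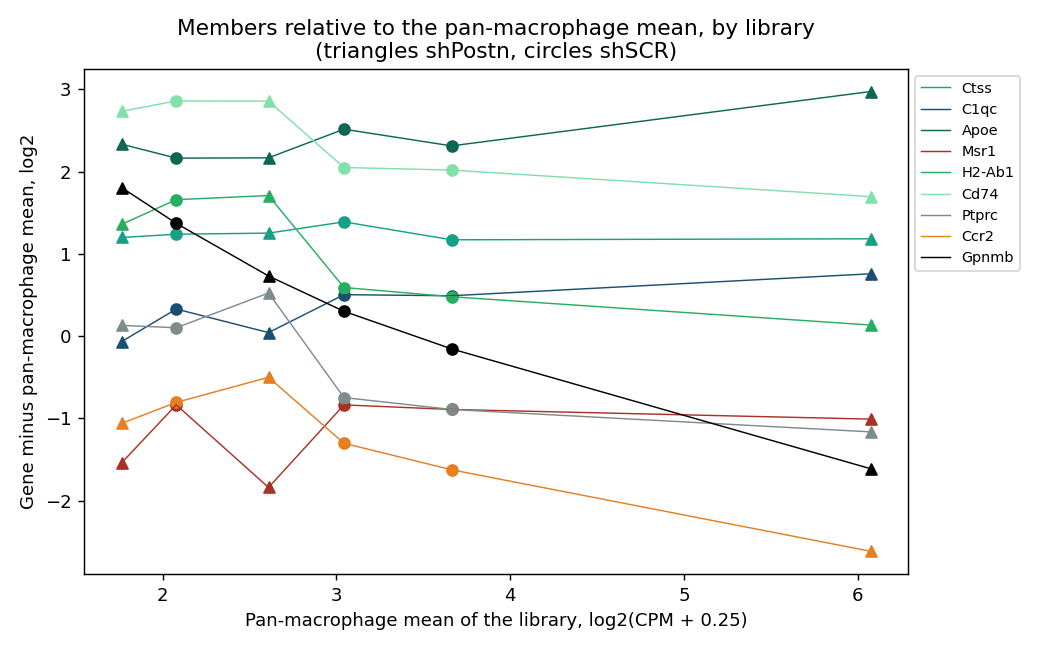
Within-library difference from the macrophage mean for 9 genes, plotted against that mean (both in log2 units), with triangles for shPostn and circles for shSCR libraries and a line joining each gene's 6 points. Gpnmb falls at every step of the mean, and Ctss stays within 0.22 log2 units. The mean enters both axes, so a gene of even CPM falls along it by construction.

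Groups did not overlap in this difference for 2 of the 37 tested members, Fcer1g and Msr1. Over all genes tested they did not overlap for 1.38%, a share that is no yardstick for genes that follow the mean, since for most genes the difference mainly carries the macrophage mean itself. Fcer1g was −0.997, −1.16 and −1.21 in shPostn, against −0.88, −0.66 and −0.72 in shSCR. Msr1 was −1.84, −1.54 and −1.01 in shPostn, against −0.89, −0.84 and −0.84 in shSCR. The gap between the groups was small, −0.997 in shPostn replicate 1 beside −0.88 in shSCR replicate 1 for Fcer1g, and nothing further is read from a count of 2.

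A fit over all genes with the macrophage mean of each library as a covariate asked the same question by edgeR. It called 2 members lower in shPostn, beside 9.28% of all genes tested that were called lower. Arg1 fell by 0.88 on the log2 scale at a given macrophage mean (log2 fold change −0.88, SE 0.22, adjusted p = 0.0446 by edgeR). Msr1 fell by 0.79 (log2 fold change −0.79, SE 0.18, adjusted p = 0.0203 by edgeR). The 10 macrophage genes themselves make up the covariate, so their values in this fit are not read. A share of 2 in 37 members lies below the 9.28% of all genes, and the fit leaves few degrees of freedom.

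The covariate is set largely by shPostn replicate 3. With that library left out, a fit chosen after the data were seen, 0 members were called lower, beside 6.53% of all genes tested. Arg1 then had a log2 fold change of −0.71 (SE 0.30, adjusted p = 0.185 by edgeR) and Msr1 of −1.03 (SE 0.30, adjusted p = 0.0586 by edgeR). The direction of both genes held and their calls did not.

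Macrophage and leukocyte genes outside the 40 behaved much as the members did. Of 22 further macrophage genes tested 0 were called, and their median log2 fold change was 1.30 with all libraries, or −0.74 without shPostn replicate 3. The most abundant were Stab1, a scavenger receptor shared with sinusoidal endothelium, with 34.3, 22.3 and 94.2 CPM in shPostn, against 29.2, 24.1 and 17.7 CPM in shSCR, and Fcgr2b, the inhibitory Fc receptor, with 6.12, 2.50 and 58.1 CPM in shPostn, against 12.5, 9.28 and 5.59 CPM in shSCR. All 22 were highest in shPostn replicate 3. Of 22 further leukocyte genes tested 0 were called, with a median of 1.15, and of −0.31 without shPostn replicate 3.

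Among those, Arhgdib, a regulator of small GTPases in blood cells, had 195, 193 and 153 CPM in shPostn, against 172, 172 and 156 CPM in shSCR, lowest in the library where macrophage genes were highest. Lcp1, the actin bundler L-plastin, had 13.6, 5.51 and 78.4 CPM in shPostn, against 21.1, 13.7 and 8.41 CPM in shSCR, in the macrophage order. Of 4 further class II pathway genes 0 were called. H2-DMb1 had 9.53, 8.26 and 19.7 CPM in shPostn, against 14.4, 12.2 and 10.7 CPM in shSCR, and H2-DMa, the other chain of the peptide exchanger H2-DM, had 4.01, 2.96 and 14.4 CPM in shPostn, against 4.79, 3.83 and 3.73 CPM in shSCR.

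State lists beyond the members held 1 call. Of 10 inflammatory macrophage genes 1 rose, beside the 10.1% of all genes called. It was Ccl5, a chemokine for T cells and monocytes that many cell types make, with 9.78, 6.84 and 7.50 CPM in shPostn, against 3.95, 3.93 and 3.93 CPM in shSCR (log2 fold change 1.04, SE 0.18, adjusted p = 0.0170 by edgeR). Its order among libraries was not that of the macrophage genes, since shPostn replicate 1 was highest, and the call was lost when any 1 of the shSCR libraries was left out (adjusted p up to 0.0855 by edgeR). Of 3 alternative activation genes 0 were called: Mgl2, a lectin, had 0.903, 0.969 and 5.69 CPM in shPostn, against 1.93, 2.80 and 1.06 CPM in shSCR. Ccl8 had 1.60, 0.969 and 2.47 CPM in shPostn, against 0.791, 0.982 and 0.957 CPM in shSCR. Of 10 lipid and lysosome genes 0 were called, and the most abundant, Cd63 and Ctsl, were at 589, 605 and 637 CPM and 529, 541 and 637 CPM in shPostn, against 636, 651 and 632 CPM and 575, 493 and 544 CPM in shSCR.

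Ligands that recruit or feed macrophages were tested in the same fit, and 2 of 10 fell, beside 10.1% of all genes tested that were called in either direction. Csf2, the growth factor GM-CSF, had 1.003, 1.12 and 0.604 CPM in shPostn, against 3.51, 4.76 and 3.48 CPM in shSCR (log2 fold change −2.09, SE 0.31, adjusted p = 0.00994 by edgeR). Mif, macrophage migration inhibitory factor, had 223, 190.4 and 251 CPM in shPostn, against 309, 326 and 284 CPM in shSCR (log2 fold change −0.47, SE 0.11, adjusted p = 0.0405 by edgeR). For both, all 3 shPostn libraries were below all 3 shSCR libraries, shPostn replicate 3 included, unlike the macrophage genes. The call of Csf2 was lost without shSCR replicate 2 (adjusted p = 0.0585 by edgeR). That of Mif was lost without any 1 library other than shPostn replicate 3 (adjusted p up to 0.157), and held without that library. The other 8 ligands did not pass the test.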

How the data were processed

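RNA sequencing libraries of RFP+ sarcoma cells (3 shPostn, 3 shSCR) were made by BGI as DNBSEQ strand-specific mRNA libraries after TRIzol extraction, per the labels' protocols. The authors deposited estimated counts per Ensembl gene; the submitters' processing notes name Salmon and mm10, while versions and the annotation were not given in the sources used here. Every value was whole (0 were not), so rounding changed nothing. Salmon divides reads between similar genes, so levels of close paralogs are uncertain.

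Symbols and positions came from GENCODE M21 (GRCm38). CPM used column totals of 19603269 to 20376554 counts. Genes passing filterByExpr (minimum count 10) were tested on counts with TMM factors by edgeR 4.0.16's robust quasi-likelihood test in R 4.3.3, with Benjamini-Hochberg adjustment over 12819 genes and a threshold of 0.05, without covariates. Fold changes are shPostn over shSCR. The test was also run on simulated counts in which every gene had the same relative spread between libraries, 0.183. With 200 genes changed, 8 of 184 calls were false. Most members varied far more than that in shPostn, so this run does not cover them. State genes used log2(CPM + 0.25) and exact permutation tests in SciPy 1.17.1. Limits for a count of 0 use 3 counts and cover counting error only, since reads carry no molecular identifiers.

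Alternatives were relative log expression or no composition factors, other count filters, DESeq2 1.42.0, limma-voom (limma 3.58.1), a replicate block, the macrophage mean as a covariate, chromosome medians (genes with a mean above 4 CPM) taken out, other pseudocounts and macrophage gene sets, and each library left out in turn. Members, 21 other lists and the tests were chosen with earlier results of these data known. All 40 members are described, and those that failed the filter by their counts. For each other list the 2 called genes with the largest change each way are named, or the 2 most abundant if none was called. Lists of other cell types and of the sarcoma line are given as sums. Camp, Elane and single T cell, dendritic cell, endothelial, pericyte and sarcoma line genes were named after their values were seen. Promoter windows are from RefSeq on GRCm38.p6. The labels give no batch, so none was modelled.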

Additional observations from a re-analysis of the deposited data

How the results depend on the processing

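The number of members called was 0 under every setting except the macrophage covariate, which gave 2. Over all genes the main count was 1300. DESeq2 called 1973 genes, the macrophage covariate 2204 and the replicate block 735, and leaving out 1 library gave 307 to 2220. Correlations between libraries of the 2 groups, as deviations from their group means, were −0.07, −0.12 and −0.46 for the same replicate numbers. For different numbers they lay between −0.35 and 0.42. With 3 libraries per group this cannot settle whether the numbers pair the libraries. The difference in the macrophage mean ranged between −0.74 and 1.41 when 1 library was left out. The permutation tests of the 8 state genes could not pass under any setting, since 3 against 3 libraries allow no p below 0.1. Of 554 recomputed log2 fold changes of members, 494 kept their sign and 60 did not. With 1 library left out, those that changed sign ranged from −1.03 to 2.23 for Adgre1, −0.75 to 1.70 for Cd68, −0.80 to 1.81 for Csf1r, −0.77 to 1.83 for Lyz2, −1.20 to 2.46 for C1qa, −1.03 to 2.35 for C1qb, −1.26 to 2.37 for C1qc, −0.59 to 2.18 for Mpeg1, −0.91 to 3.37 for Ms4a7, −0.21 to 2.17 for Ms4a6c, −1.94 to 2.05 for Arg1, −0.96 to 2.17 for Mrc1, −0.65 to 2.13 for Trem2, −0.82 to 1.42 for Cd86, −0.20 to 1.76 for Cd74, −0.13 to 1.60 for H2-Aa, −0.10 to 1.63 for H2-Eb1, −1.18 to 1.74 for Fcgr3, −1.16 to 1.77 for Fcer1g, −0.55 to 1.84 for Tyrobp, −0.51 to 1.36 for Coro1a, −0.64 to 1.83 for Laptm5, −0.39 to 1.57 for Spi1, −0.98 to 1.79 for Itgam, −0.47 to 1.93 for Cybb, −1.22 to 1.76 for Aif1, −0.26 to 1.71 for Cd14, −0.80 to 2.03 for Cx3cr1, −0.14 to 1.28 for Ccr2, −1.50 to 2.84 for Pf4, −0.84 to 2.07 for Ctss, −0.94 to 2.69 for Apoe, −0.23 to 0.032 for Spp1 and −1.85 to 1.98 for Msr1. Leaving out shPostn replicate 3 gave the lowest value of each of these.

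With the macrophage covariate the sign changed to −0.16 for Adgre1, −0.10 for Cd68, −0.10 for Csf1r, −0.097 for Lyz2, −0.16 for C1qa, −0.069 for C1qb, −0.28 for C1qc, −0.88 for Arg1, −0.12 for Mrc1, −0.24 for Cd86, −0.41 for Fcgr3, −0.38 for Fcer1g, −0.26 for Itgam, −0.28 for Aif1, −0.011 for Cx3cr1, −0.30 for Pf4, −0.048 for Ctss and −0.79 for Msr1; limma-voom gave −0.085 for Arg1 and −0.13 for Msr1, and the replicate block gave −0.53 for Arg1, −0.074 for Fcgr3, −0.055 for Fcer1g and −0.45 for Msr1. With the covariate and without shPostn replicate 3, a setting chosen after the data were seen, Arg1 had −0.71 and Msr1 −1.03. Among the state differences, leaving out 1 library gave −0.18 to 0.16 for Mrc1, −1.23 to 0.85 for Cd163, −0.15 to 0.45 for Folr2, −1.82 to 0.34 for Lyve1, −0.95 to 0.76 for Gpnmb and −0.74 to 0.027 for Cd86. A pseudocount of 1 gave −0.11 for Folr2, and the log2 of the summed CPM as the reference gave 0.050 for Mrc1. The causes of these changes were not tested, beyond the loss of samples where a library is left out. Depth limits Cd163, Folr2, Lyve1, Cd86, Aif1, Pf4 and Ms4a7 most, with few counts in most libraries.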
